A study of Mus musculus with 6 samples.

Results

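Venular endothelial cells, which line the small veins that drain the brain's capillaries, were chosen from droplet single-cell RNA-seq libraries of mouse brain microvessels by their marker transcripts. A barcode was kept with at least 1000 UMIs (unique molecular identifiers, 1 per captured transcript) and at most 15% mitochondrial UMIs, and was called endothelial when at least 3 of Pecam1, Cdh5, Flt1, Ly6c1 and Esam were detected and transcripts of mural cells and microglia were near 0. An endothelial cell was called venular when at least 3 of the 6 markers Ackr1, Adgrg6, Lrg1, Vwf, Col6a6 and Ch25h were detected, at most 2 arterial and at most 2 large-artery markers were, and neither Apln nor Plvap had a UMI. This gave 1064 venular cells of 22474 endothelial cells and 30586 barcodes.

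The Cldn5 iECKO mice had Cdh5-creERT2, in which the promoter of the endothelial cadherin drives a recombinase that tamoxifen switches on, on a C57Bl6 background with floxed alleles of Cldn5 (fl/fl) and a YFP reporter at R26 (YFP/YFP). The controls had the same floxed alleles and reporter and no recombinase. Both groups were given tamoxifen, 100 µl at 20 mg/ml, by gavage on 3 days at about 3 months of age. Microvessel fragments were captured with an antibody to PECAM1, an endothelial adhesion protein, before they were split into cells. The series' title calls the deletion mosaic, and the question taken up here is what venular cells show in such brains, and whether it differs from what capillary and arterial cells show.

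Cldn5 encodes claudin-5, a protein of the tight junctions that seal brain endothelium. Venules are the segment where leukocytes attach to and cross the vessel wall in an inflamed brain, through adhesion proteins such as selectins and VCAM1, and where the receptor for interleukin-1 is prominent. NF-kappaB is the transcription factor family through which interleukin-1 and tumour necrosis factor switch on adhesion proteins and chemokines, and MHC class I proteins display fragments of a cell's own proteins to T cells.

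There were 3 libraries in each group, and since it is not stated that each library came from its own animal, p-values measure the spread between libraries. Cldn5 iECKO 1 to 3 gave 248, 156 and 147 venular cells, and control 1 to 3 gave 98, 228 and 187. No barcode was shared between the venular cells of different libraries. Their median depth was 13718.5, 6554.5 and 14903 UMIs in Cldn5 iECKO 1 to 3, against 17261, 12286 and 15770 UMIs in control 1 to 3, so that Cldn5 iECKO 2 was the shallowest. Capillary cells, with medians of 3513 to 5240 UMIs over the 6 libraries, were shallower in each. A share of the venular cells, 21.8% to 33.9% in Cldn5 iECKO and 31.6% to 60.2% in control libraries, lay above the 95th percentile of UMIs of the endothelial cells of their library, and no doublet caller was run. Transcripts of other cells were present at low levels. Astrocyte markers summed to 53.4 to 86.0 CPM (UMIs scaled to a common total for every library) in Cldn5 iECKO and 36.9 to 55.3 CPM in control venular cells, neuron markers to 22.1 to 32.9 CPM in Cldn5 iECKO and 10.7 to 17.6 CPM in control cells, and pericyte markers to 3.87 to 15.7 CPM in Cldn5 iECKO and 0.53 to 4.58 CPM in control cells. Of these lists all 8 astrocyte, all 8 neuron and all 8 pericyte markers had UMIs, while all 6 neutrophil markers were at 0. Choroid plexus markers, with Ttr the leading one, summed to 4620, 63.3 and 36.0 CPM in Cldn5 iECKO 1 to 3, against 43.3, 90.4 and 14.1 CPM in control 1 to 3, so that 1 library stood apart. Haemoglobin transcripts ran from 166 to 3527 CPM in Cldn5 iECKO and from 184 to 8023 CPM in control libraries. The part of this free or foreign RNA in the results was not tested.

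The 6 marker genes chose the cells, so their levels are a description. Vwf, the carrier of clotting factor VIII, was in nearly all of them, at 1883, 2195 and 1690 CPM in Cldn5 iECKO 1 to 3, against 1395, 1820 and 1526 CPM in control 1 to 3. Ackr1, a decoy receptor that carries chemokines across venules, was at 233, 147 and 152 CPM in Cldn5 iECKO 1 to 3, and at 86.6, 91.9 and 129 CPM in control 1 to 3. Lrg1, a secreted glycoprotein, was at 998, 653 and 349 CPM in Cldn5 iECKO, and at 186, 185 and 197 CPM in control libraries. For both genes each Cldn5 iECKO library lay above each control. Since the gate reads these genes and they differ between the groups, no share of venular cells is set against the genotype here. The gate was repeated without Lrg1 and Ch25h, and still with Ackr1, for the fits by genotype, the class differences and the Cldn5 share. Counts by gene list and counts of groups that did not overlap are from the main gate only. In capillary cells Ackr1, Adgrg6, Lrg1 and Col6a6 were detected in at most 0.942% of cells of any library, whereas Vwf was detected in 30.4% to 49.6%. The capillary gate admits cells with at most 1 of the 6 markers, so these shares follow in part from the choice of cells.

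The number of markers detected ordered the cells along a gradient. Endothelial cells with 2 markers, just outside the gate, had a median over the 6 libraries of 182 CPM of Nr2f2, the nuclear receptor that sets venous identity, against 249 CPM in cells with 3 markers, just inside, 373 CPM in cells with 5 and 360 CPM in cells with all 6. Il1r1, the interleukin-1 receptor, was at 129, 246 and 330 CPM in cells with 2, 3 and 6 markers. The capillary gene Mfsd2a, a lipid transporter of the barrier, ran the other way, from 158 through 90.1 to 19.2 CPM. Cldn5 was at 4278, 4359 and 2811 CPM in cells with 2, 3 and 6 markers. Median depth also grew, from 8540.5 to 21047.5 UMIs, and its part in the gradient was not tested.

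Outside the gate genes, venular cells were set apart from capillary cells by genes of inflammation, prostaglandin synthesis and venous identity. Levels across cell classes are shares of all UMIs summed over a class in a library, and ratios were taken after adding 5 CPM. Lcn2, the acute-phase protein lipocalin-2, was at 956, 315 and 300.1 CPM in venular cells of Cldn5 iECKO 1 to 3 and at 127, 110.2 and 133 CPM in those of control 1 to 3, against 2.68 to 28.9 CPM in capillary cells. Its mean log2 ratio of venular over capillary level was 4.25 ± 0.55 (SD, n = 6 libraries). Ptgs2, the inducible cyclooxygenase of prostaglandin synthesis, was at 449, 377 and 157 CPM in Cldn5 iECKO and 124, 230.2 and 165 CPM in control venular cells, with a log2 ratio of 3.79 ± 0.33. Pla2g4a, the phospholipase that feeds that pathway, had 2.19 ± 0.29. Vcam1, the adhesion protein that holds leukocyte integrins, had 3.22 ± 0.51, Il1r1 2.62 ± 0.20 and Socs3, a feedback inhibitor of cytokine receptors, 2.60 ± 0.69. Nr2f2 was the steadiest of the 20 genes with the largest ratios, at 2.38 ± 0.08, and its venular level of 317, 344 and 333 CPM in Cldn5 iECKO overlapped that of 281, 303 and 389 CPM in control libraries. All 20 were higher in venular than in capillary cells of all 6 libraries. Among genes in the opposite direction, Cxcl12, a chemokine of capillaries and arteries, was at 48.3, 139 and 213 CPM in Cldn5 iECKO and at 173, 265 and 224 CPM in control venular cells, against 566 to 2981 CPM in capillary cells (log2 ratio -3.40 ± 0.24).

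**Figure D1:**
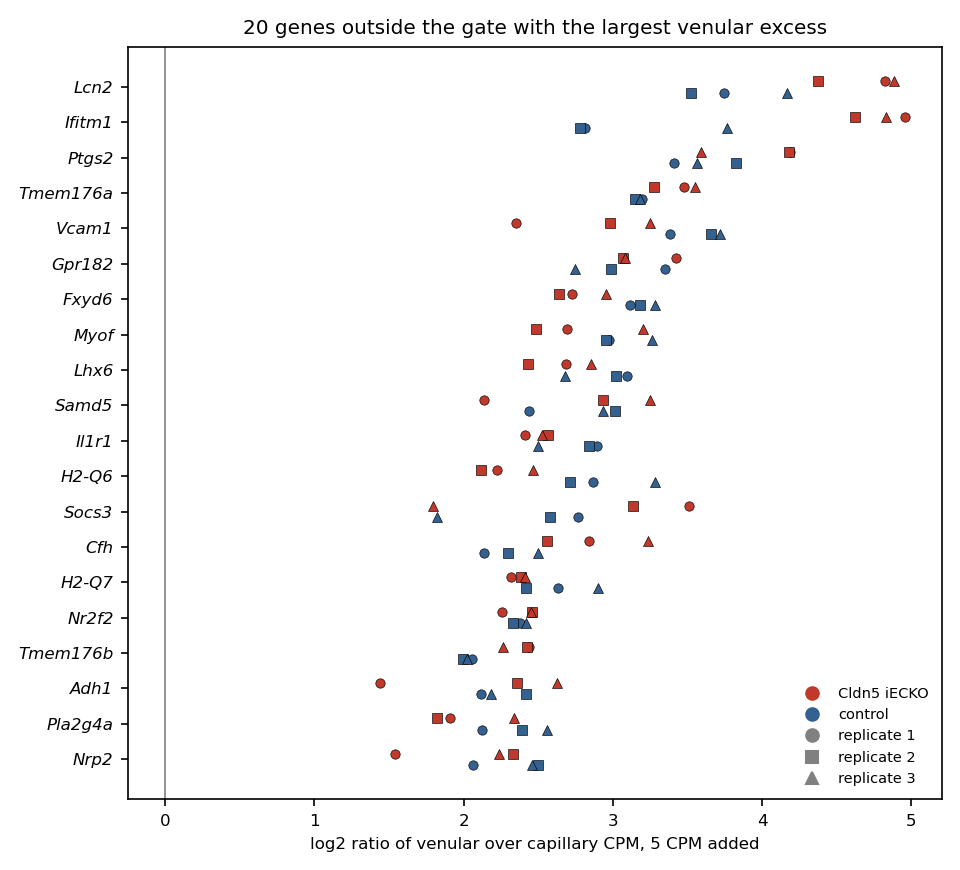
Log2 ratio of venular over capillary CPM (5 CPM added, horizontal axis) for the 20 genes outside the gate with the largest mean ratio (vertical axis), with 1 point per library, Cldn5 iECKO in red above control in blue. Lcn2 stands at the top with a mean of 4.25, and each point lies above 0.

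By gene list, 15 of 20 other venous identity genes, 13 of 16 acute phase and prostaglandin genes and 10 of 15 MHC class I genes were higher in venular than in capillary cells of all 6 libraries, against 19.0% of the 9970 genes compared. Of 24 immediate-early and stress genes 21 were higher and 0 lower. Lower in all 6 libraries were 14 of 21 barrier transporters, 13 of 21 angiogenesis genes and 16 of 24 genes of basement membrane and integrins, against 18% of all genes. The gate selected cells by expression, and the classes differ in depth, so these ratios carry no test.

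The targeted gene was lower in venular cells of the Cldn5 iECKO libraries. Cldn5 (ENSMUSG00000041378, GRCm38 chromosome 16, bases 18776847 to 18778262, plus strand) was at 2379, 2078 and 2934 CPM in Cldn5 iECKO 1 to 3, against 3776, 4257 and 4538 CPM in control 1 to 3. These and all later levels within venular cells are scaled by TMM, edgeR's correction for library composition, and the groups did not overlap. The log2 fold change was -0.77 ± 0.23 (SE), which missed the threshold of 0.05 in the unpaired edgeR fit (adjusted p = 0.684). With the replicate number as a block, so that each Cldn5 iECKO library was set against the control of the same number, it was -0.78 ± 0.12 (edgeR adjusted p = 0.00065, lower in 3 of 3 pairs). Without the pair of replicate 2 the paired call was lost. The floxed part of Cldn5 is not given in the sources used here, and a 3′ tag outside it would still be counted.

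To count cells without the transcript at equal depth, each cell was thinned to 2000 UMIs. Of the venular cells, 37 of 242 (15.3%), 21 of 147 (14.3%) and 11 of 142 (7.75%) held no Cldn5 UMI in Cldn5 iECKO 1 to 3. In control 1 to 3 these were 1 of 97 (1.03%), 0 of 225 (where the limit that 3 counts allow is 1.33% and the exact upper limit 1.63%) and 1 of 185 (0.541%). The exact Clopper-Pearson 95% intervals, which cover counting error only, ran from 11 to 20.5%, 9.07 to 21% and 3.93 to 13.4% in Cldn5 iECKO 1 to 3, and reached at most 5.61% in a control. The means were 12.4% ± 4.10 in Cldn5 iECKO and 0.524% ± 0.516 in control libraries (SD, n = 3 each), and each Cldn5 iECKO library lay above each control (two-sided exact permutation p = 0.1, the smallest that this design allows). Thinning left out 5 to 9 shallower cells in a Cldn5 iECKO and 1 to 3 in a control library, and without thinning the shares were 7.26%, 7.69% and 5.44% in Cldn5 iECKO and 0 in control libraries. At the same depth the share was 17.9% ± 1.96 in Cldn5 iECKO and 0.710% ± 0.359 in control capillary cells, and 25.2% ± 1.87 in Cldn5 iECKO and 0.360% ± 0.263 in control arterial cells. In the Cldn5 iECKO libraries venular minus arterial share was -11.5, -11.4 and -15.4 percentage points and venular minus capillary share -4.66, -1.75 and -9.98 points, and 3 libraries cannot give a two-sided p under 0.25 for either. In microglia, which do not make claudin-5, 89.1% ± 5.95 of cells in Cldn5 iECKO and 85.9% ± 10.8 in control libraries held no Cldn5 UMI, with median depths before thinning of 2975 to 5534.5 and 2637 to 4949 UMIs. The source of the Cldn5 UMIs in the other microglia was not tested.

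**Figure D2:**
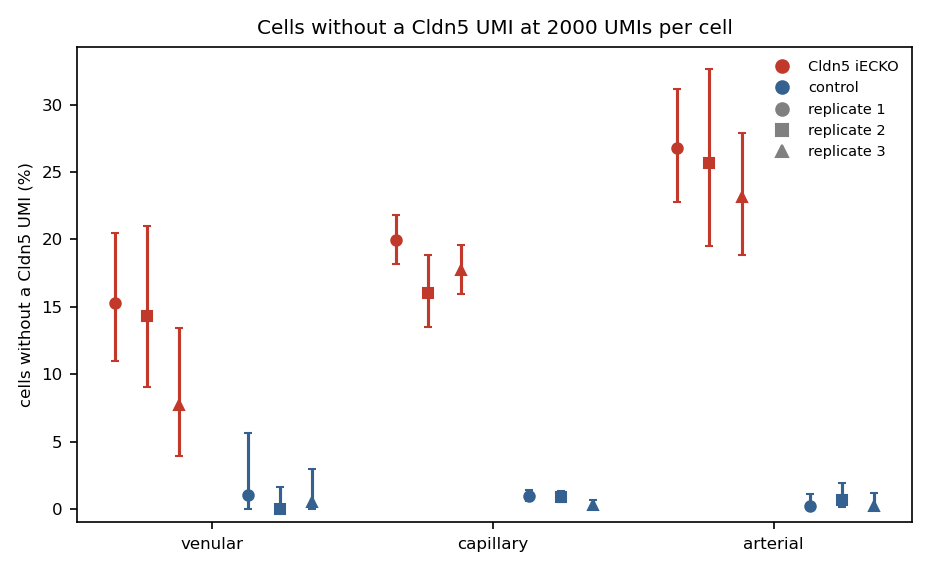
Percentage of cells without a Cldn5 UMI after thinning to 2000 UMIs (vertical axis) in venular, capillary and arterial cells, with 1 point per library, Cldn5 iECKO in red left of control in blue, and exact 95% intervals as bars. The Cldn5 iECKO venular libraries lie between 7.75 and 15.3%, and the control ones at or under 1.03%.

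Leaving out the genes used by the gates, 0 of 10345 genes passed edgeR's quasi-likelihood test at an adjusted p under 0.05 without the block, and 542 (5.24%) had an unadjusted p under 0.05. DESeq2 called 12 higher and 2 lower. Libraries with the same number deviated together from their group means, those of replicate 3 the least. With the number as a block 96 genes were higher and 48 lower in Cldn5 iECKO (0.928% and 0.464% of the genes tested, 1.39% in all). The paired count rested on particular libraries and cells: it was 69, 76 and 249 without replicate 1, 2 or 3 of both groups, 36 without the cells of highest UMI count, 65 with at least 4 markers required and 66 when Lrg1 and Ch25h were not used. Gene calls below are those of the paired test unless another is named, and the values per library show how far the groups stood apart. The groups did not overlap for 5.69% of all genes in the higher and 4.69% in the lower direction.

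Genes higher in Cldn5 iECKO venular cells included secreted binders of insulin-like growth factors, cytoskeletal linkers and an integrin. Igfbp3, which binds insulin-like growth factors, was at 125, 49.3 and 13.5 CPM in Cldn5 iECKO 1 to 3, against 1.74, 3.84 and 2.14 CPM in control 1 to 3, and the log2 fold change was 4.15 ± 0.45 (edgeR adjusted p = 0.0159 with the block, 0.828 without). The groups did not overlap, but the Cldn5 iECKO libraries differed widely among themselves. The call was lost when Apln and Plvap were allowed and without the pair of replicate 2. Igfbp7, a related matrix protein, was at 2136, 1367 and 975 CPM in Cldn5 iECKO, against 886, 658 and 688 CPM in control libraries (0.94 ± 0.14, edgeR adjusted p = 0.00065). Slc1a1, a glutamate transporter, was at 109, 71.3 and 42.8 CPM in Cldn5 iECKO, against 40.5, 35.5 and 30.8 CPM in control libraries (0.97 ± 0.16). Capillary cells held more Slc1a1, as shares of all UMIs, with 355, 371 and 267 CPM in Cldn5 iECKO and 221, 223 and 216 CPM in control libraries. Those groups did not overlap either. Gimap5, a GTPase of lymphocytes and endothelium, was at 97.2, 58.8 and 73.8 CPM in Cldn5 iECKO, against 42.3, 30.4 and 46.4 CPM in control libraries (0.92 ± 0.14, edgeR adjusted p = 0.000531). Gimap genes are a family of near copies that can share reads. Tbx1, a T-box transcription factor, was at 140, 173 and 161 CPM in Cldn5 iECKO, against 79.9, 91.6 and 112 CPM in control libraries (0.74 ± 0.11, edgeR adjusted p = 0.00065). The Tbx1 gene lies near the targeted Cldn5 on chromosome 16 (GRCm38 bases 18580979 to 18590671). Whether the altered Cldn5 locus has a part in its level was not tested. Both Gimap5 and Tbx1 kept their call in 13 of 13 other settings of the paired edgeR fit. Msn, the moesin that ties adhesion receptors to actin, was at 539, 437 and 417 CPM in Cldn5 iECKO, against 303, 283 and 292 CPM in control libraries (0.66 ± 0.12). Itga6, an integrin that binds laminin, was at 573, 449 and 412 CPM in Cldn5 iECKO, against 306, 293 and 291 CPM in control libraries (0.67 ± 0.12). Capg, which caps actin filaments, was at 172, 85.0 and 107 CPM in Cldn5 iECKO, against 75.8, 66.3 and 64.6 CPM in control libraries (0.76 ± 0.14). The other named genes in this direction were Rpap3, Trim16, Srgap1, Crlf2, Sesn3, Spaca6 and Cdc42ep3, with log2 fold changes from 0.65 to 0.92.

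Genes lower in Cldn5 iECKO venular cells included interferon-induced genes and a gene that shear stress induces. Ifi27l2a, an interferon-induced gene, was at 43.3, 23.8 and 40.3 CPM in Cldn5 iECKO 1 to 3, against 119, 50.0 and 76.9 CPM in control 1 to 3 (-1.17 ± 0.14, edgeR adjusted p = 4.49e-05). Gadd45g, a growth arrest gene, was at 253, 228 and 186 CPM in Cldn5 iECKO, against 470, 442 and 325 CPM in control libraries (-0.88 ± 0.12, edgeR adjusted p = 0.000133). Both kept their call in 13 of 13 other settings of the paired edgeR fit. Klf2, the transcription factor that blood flow induces, was at 2372, 2331 and 3007 CPM in Cldn5 iECKO, against 4863, 3207 and 3704 CPM in control libraries (-0.60 ± 0.13), and lost its call without the pair of replicate 1 or 2 and with at least 4 markers required. Cst3, an inhibitor of cysteine proteases, was at 975, 870 and 1051 CPM in Cldn5 iECKO, against 2121, 1251 and 1427 CPM in control libraries (-0.70 ± 0.13). Microglia also make it abundantly, and microglia and macrophage markers summed to 33.1 to 48.8 CPM in Cldn5 iECKO and 36.9 to 47.4 CPM in control venular cells, with all 10 detected. Bst2, the interferon-induced protein tetherin, was at 177, 161 and 170 CPM in Cldn5 iECKO, against 348, 184 and 257 CPM in control libraries (-0.60 ± 0.13). Psmb9, a subunit of the immunoproteasome that trims peptides for MHC class I, was at 76.5, 79.0 and 131 CPM in Cldn5 iECKO, against 152, 137 and 154 CPM in control libraries (-0.65 ± 0.13). The other named genes in this direction were Serpina3g, Hexa, Crispld1, Ltbp4, Hnrnph3, Igtp, Mien1 and Selenom, with log2 fold changes from -1.10 to -0.49. Bst2 kept its call in 6, the interferon-induced Igtp in 5 and Psmb9 in 8 of 13 other settings of the paired edgeR fit. Of the 30 genes named by rule, Cldn5 among them, 9 were called without the cells of highest UMI count. All had the same sign in 14 of 14 other paired fits. The rule took called genes whose groups did not overlap in these same libraries, so the unchanged sign follows largely from the choice.

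**Figure D3:**
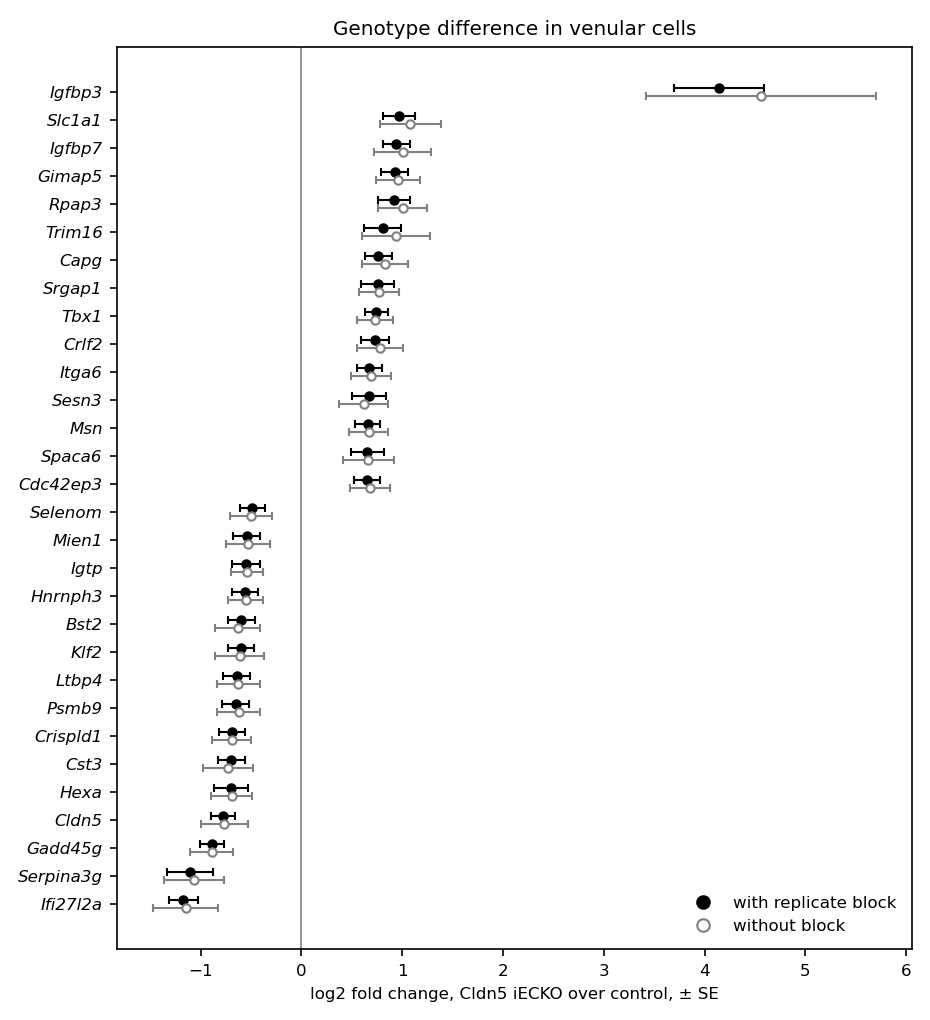
Log2 fold change of Cldn5 iECKO over control in venular cells with its SE (horizontal axis) for the 30 genes named from the paired fit (vertical axis), filled with the replicate block and open without it. Both fits put each gene on the same side of 0, and the errors with the block are smaller, as for Cldn5 with 0.12 against 0.23. The genes were chosen for their paired call and groups that did not overlap, so neither trait is a test. For Dll4, not among them, the error was 0.48 with the block and 0.36 without.

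Of 26 basement membrane and integrin genes 4 were called higher, and of 15 MHC class I genes 1 was called lower, against 0.928% and 0.464% of all genes. Of the 26, 23 had a positive log2 fold change, with a median of 0.40 against a median of 0.00 over all genes tested, of which 49.2% were positive. The paired test called 0 of them lower. Those called higher were Itga6, Fn1 (fibronectin), Nid1 (nidogen, which links laminin to collagen) and Timp1, an inhibitor of matrix proteases. Fn1 was at 982, 1093 and 1045 CPM in Cldn5 iECKO, against 616, 830 and 749 CPM in control libraries (0.52 ± 0.12). Of 20 angiogenesis genes, 17 were positive with a median of 0.50, and Igfbp3, Kit, Angpt2 and Nrp1 were called higher. Kit, a receptor kinase, was at 17, 12.5 and 4.28 CPM in Cldn5 iECKO, against 1.74, 1.28 and 0.536 CPM in control libraries. Angpt2, the ligand that opposes Tie2 signalling, was at 5.58, 7.72 and 6.77 CPM in Cldn5 iECKO, against 1.16, 1.92 and 0.804 CPM in control libraries, and both are low counts. Of 28 interferon-induced genes, 22 were negative with a median of -0.20, and Ifi27l2a, Bst2 and Igtp were called lower. The member of that list with the largest change in size went the other way and did not pass. Ifitm1, an interferon-induced membrane protein, was at 237, 149 and 161 CPM in Cldn5 iECKO, against 45.2, 39.1 and 76.1 CPM in control libraries, groups that did not overlap (1.76 ± 0.27, edgeR adjusted p = 0.0819, 0.133 with the block). All 15 MHC class I genes were negative, with a median of -0.34, and Psmb9 was the member called.

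The paired test called 1 of 20 venous identity and 2 of 18 leukocyte adhesion genes, against 1.39% of all genes. Nr2f2 was at 333, 352 and 306 CPM in Cldn5 iECKO, against 304, 317 and 356 CPM in control venular cells (0.02 ± 0.18), and the venous gene called was Aplnr, the apelin receptor (lower, -0.64 ± 0.16, with overlapping groups). Vcam1 was at 873, 633 and 603 CPM in Cldn5 iECKO, against 544, 727 and 560 CPM in control venular cells (0.20 ± 0.23, edgeR adjusted p = 0.992, 0.613 with the block). Icam1, which holds leukocytes firmly, was at 373, 238 and 184 CPM in Cldn5 iECKO, against 237, 363 and 129 CPM in control venular cells (0.13 ± 0.39). Both overlapped between the groups. Sele, the E-selectin on which leukocytes roll, was called higher (2.28 ± 0.40, edgeR adjusted p = 0.00294 with the block, 0.606 without). It was at 13.5, 16.6 and 4.63 CPM in Cldn5 iECKO, against 0.579, 4.48 and 1.34 CPM in control libraries. These are low counts, and the lowest Cldn5 iECKO value lay just above the highest control. Selp, another selectin gene of the list, overlapped between the groups and was not called (2.57 ± 1.11, edgeR adjusted p = 0.482 with the block). Besides Sele, Msn was the adhesion gene called. Lcn2 was at 1003, 323 and 276 CPM in Cldn5 iECKO, against 138, 116 and 122 CPM in control libraries, groups that did not overlap, yet its spread kept it from the threshold (edgeR adjusted p = 0.653, 0.369 with the block). Among 19 junction genes, Cldn5 was called lower and Cgnl1, the junction protein paracingulin, higher, at 153, 263 and 202 CPM in Cldn5 iECKO against 88.6, 152 and 158 CPM in control libraries (0.64 ± 0.12). Ocln and Tjp1, which encode occludin and ZO-1, had log2 fold changes of -0.07 ± 0.17 and -0.01 ± 0.23.

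Whether the genotype difference itself differed between vessel classes was tested in 1 model over both classes with the library as a block. Against capillary cells, 11 of 11211 genes had a more positive genotype difference in venular cells and 43 a more negative one (0.0981% and 0.384%, 0.482% in all). Against arterial cells there were 14 and 44 of 11017 (0.127% and 0.399%, 0.526% in all). Both comparisons use the same venular libraries. The totals of 54 and 58 moved by more than 1.5 times when single libraries were left out. Against capillary cells they were 22 without Cldn5 iECKO 2, 144 without Cldn5 iECKO 3, and 23, 32 and 23 without control 1, 2 and 3. Against arterial cells they were 30, 26 and 124 without Cldn5 iECKO 1, 2 and 3, and 35 and 26 without control 2 and 3.

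Vcam1 had the smallest adjusted p of the differences from arterial cells. In arterial cells it was at 237, 224 and 259 CPM in Cldn5 iECKO 1 to 3, against 56.7, 62.0 and 77.2 CPM in control 1 to 3, a log2 fold change of 1.87 ± 0.17. In venular cells, as shares of all UMIs, it was at 832, 618 and 656 CPM in Cldn5 iECKO, against 503, 693 and 611 CPM in control libraries. The venular cells of the controls thus stood above the arterial cells of Cldn5 iECKO. The genotype difference was smaller in venular than in arterial cells by 1.67 ± 0.13 on the log2 scale (-1.67, edgeR adjusted p = 2.3e-07), and it kept its call in all 6 fits with a library left out and in 8 of 8 other settings, the smallest difference being -0.64 against all other endothelial cells. In capillary cells Vcam1 was at 159, 73.9 and 64.4 CPM in Cldn5 iECKO, against 43.6, 50.3 and 41.9 CPM in control libraries. Against capillary cells the difference for Vcam1 was -0.82 ± 0.30 and did not pass (edgeR adjusted p = 0.551). Il1r1 had the same direction: in arterial cells 31.5, 16.5 and 19.5 CPM in Cldn5 iECKO, against 12.9, 11.1 and 9.87 CPM in control libraries, and in venular cells 415, 300.0 and 213 CPM in Cldn5 iECKO, against 350, 279 and 217 CPM in control libraries (difference -0.92 ± 0.17, edgeR adjusted p = 0.0064, called in 5 of 6 fits with a library left out). Against all other endothelial cells the difference for Il1r1 was -0.13 and the call was lost (edgeR adjusted p = 0.788). The chemokine gene Cx3cl1, whose membrane-bound product fractalkine is the ligand of a microglial receptor, was at 352, 232 and 195 CPM in arterial cells of Cldn5 iECKO, against 89.2, 91.6 and 93.9 CPM in those of the controls. Its venular level was 75.9, 55.1 and 62.3 CPM in Cldn5 iECKO, against 64.7, 44.9 and 50.9 CPM in control libraries (difference -1.19 ± 0.17, edgeR adjusted p = 0.00244, lost without control 3, with at least 4 markers required and when Lrg1 and Ch25h were not used). Against capillary cells the difference for Cx3cl1 was -0.87 ± 0.17 (edgeR adjusted p = 0.0219), called in 2 of 6 fits with a library left out.

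**Figure D4:**
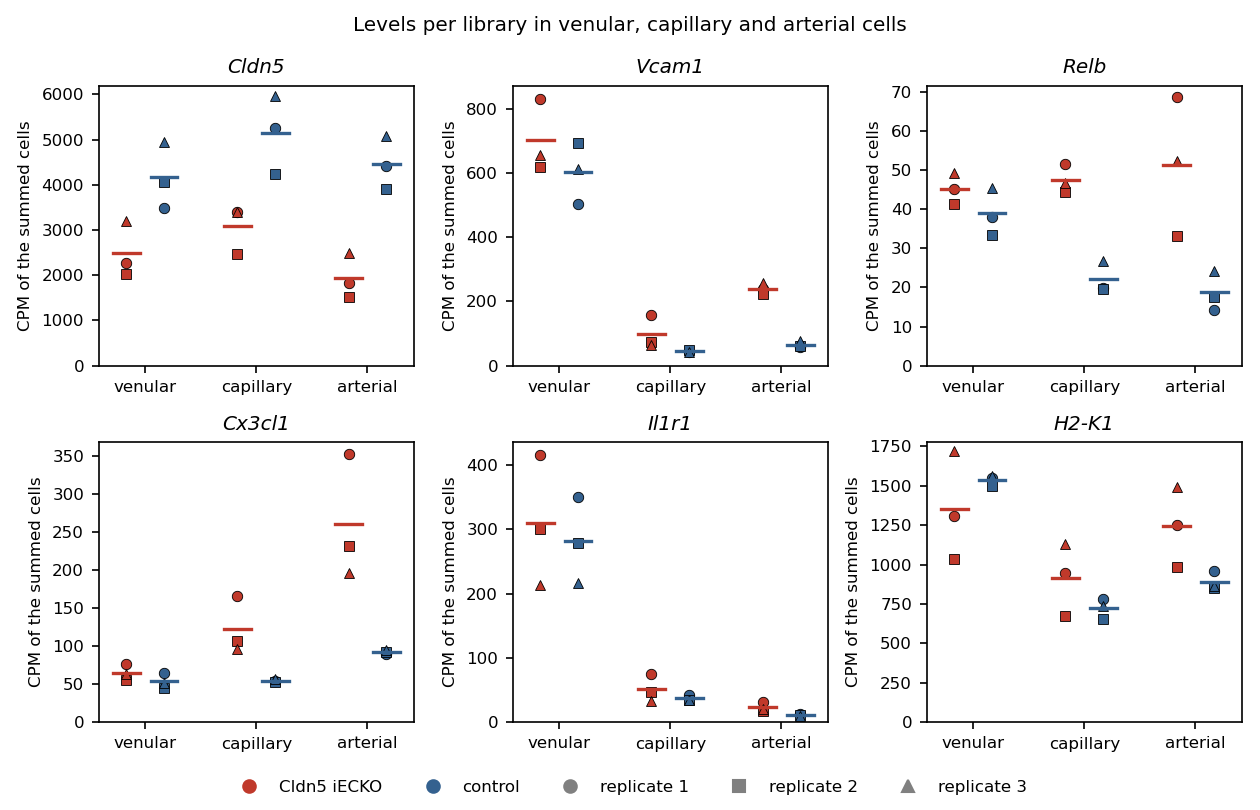
CPM of the summed cells (vertical axes) of 6 genes in venular, capillary and arterial cells (horizontal axes), with 1 point per library and a line at the mean, Cldn5 iECKO in red left of control in blue. Vcam1 and Il1r1 are highest in venular cells of both groups, where the groups overlap. The groups separate for Vcam1 in arterial and in capillary cells, and for Il1r1 in arterial cells.

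Of 16 NF-kappaB genes tested, 3 passed the test against each class, Relb, Tnfaip3 and Nfkb2, all with a more negative difference in venular cells. In that direction 0.384% of all genes passed against capillary and 0.399% against arterial cells. Relb, a subunit of the noncanonical branch, was at 45.0, 41.2 and 49.2 CPM in venular cells of Cldn5 iECKO, against 38.0, 33.3 and 45.4 CPM in those of the controls. In capillary cells it was at 51.6, 44.2 and 46.6 CPM in Cldn5 iECKO, against 19.8, 19.7 and 26.7 CPM in the controls. In arterial cells it was at 68.7, 33.1 and 52.2 CPM in Cldn5 iECKO, against 14.3, 17.5 and 24.3 CPM in the controls. The difference of venular from capillary cells was -0.90 ± 0.16 (edgeR adjusted p = 0.00318) and that from arterial cells -1.29 ± 0.21 (edgeR adjusted p = 0.00252), each called in 6 of 6 fits with a library left out. With at least 4 markers required the call against arterial cells was lost (edgeR adjusted p = 0.163). The difference was negative for 13 of the 16 against either class, where 51.3% of all genes were negative against capillary and 51.8% against arterial cells. For Nfkbiz, an atypical inhibitor protein of the family, it was 0.16 and 0.33, and neither passed. Tnfaip3 and Nfkb2, named after their values were seen, kept their calls in 6 and 1 of 6 fits with a library left out against capillary cells and in 2 and 4 against arterial cells. Tnfaip3 encodes the feedback inhibitor A20, and Nfkb2 the partner subunit of Relb. Over the list the median genotype log2 fold change was 0.21 in venular, 0.45 in capillary and 0.69 in arterial cells, and 0 members were called in venular cells by either edgeR fit. Csf1, which encodes a growth factor of microglia, differed from arterial cells by -0.90 ± 0.17 (edgeR adjusted p = 0.00669, called in 3 of 6 fits with a library left out). Against all other endothelial cells it was -0.48 and not called (edgeR adjusted p = 0.132).

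The stretch of 160 bases before the transcription start is shown for 3 of these genes, since the kappaB motif, the site that NF-kappaB binds, occurred in each. It was searched on both strands and its matches, which can overlap, are in capitals. The sequences are RefSeq's, on GRCm38.p6, from the first listed start of each gene, read 5′ to 3′ on the strand of the gene. Nfkb2 (chr19:46304577-46304736, plus strand) has matches that begin at -39, -38 and -11 relative to the start, Tnfaip3 (chr10:19015411-19015570, minus strand) at -125 and -12, and Csf1 (chr3:107760470-107760629, minus strand) at -154. Nfkb2 has 3 listed starts and Tnfaip3 has 2, and for each gene only 1 of them holds a match. Relb has 0 listed starts and could not be searched, and no promoter of Vcam1 was listed either. Of the 32851 promoters listed, 4.95% hold a match in this stretch, and of the 17 listed promoters of the NF-kappaB list 7 do. Csf1 is not on that list. The 3 genes shown were chosen for their match, so its presence in each follows from the choice. A match is a description of the letters and not a bound site.
Nfkb2: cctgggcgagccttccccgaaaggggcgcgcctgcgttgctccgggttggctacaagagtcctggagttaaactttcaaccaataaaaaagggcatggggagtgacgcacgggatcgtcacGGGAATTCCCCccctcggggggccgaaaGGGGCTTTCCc
Tnfaip3: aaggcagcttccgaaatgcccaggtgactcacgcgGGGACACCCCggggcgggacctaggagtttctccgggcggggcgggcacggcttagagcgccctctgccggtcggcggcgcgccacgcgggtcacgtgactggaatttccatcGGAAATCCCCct
Csf1: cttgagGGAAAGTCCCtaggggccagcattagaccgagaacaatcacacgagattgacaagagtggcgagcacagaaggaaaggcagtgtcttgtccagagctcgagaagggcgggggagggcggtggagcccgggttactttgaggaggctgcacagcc

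Of 15 MHC class I genes, named here after their values were seen, 4 passed the test against capillary and 5 against arterial cells. All had a more negative difference in venular cells, where 0.384% and 0.399% of all genes passed in that direction. H2-K1, a classical heavy chain, was at 1307, 1035 and 1723 CPM in venular cells of Cldn5 iECKO, against 1552, 1499 and 1565 CPM in those of the controls. In arterial cells it was at 1253, 982 and 1491 CPM in Cldn5 iECKO, against 961, 851 and 863 CPM in control libraries. The difference of venular from arterial cells was -0.69 ± 0.09 (edgeR adjusted p = 0.000238), and that from capillary cells -0.54 ± 0.08 (edgeR adjusted p = 0.000937), each called in 6 of 6 fits with a library left out. H2-D1, H2-Q4 and Psmb9 were also called against capillary cells, and H2-D1, H2-Q4, B2m and Psmb8 against arterial cells, with differences from -0.57 to -0.42. Of these, Psmb9 kept its call in 0 of 6 fits with a library left out, H2-Q4 in 1 of 6 against either class, B2m in 1, H2-D1 in 3 against either class and Psmb8 in 4. Of the 15 genes, 15 had a more negative difference in venular than in capillary cells and 14 than in arterial cells, against 51.3% and 51.8% of all genes. The heavy chain genes are near copies of each other and can share reads.

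**Figure D5:**
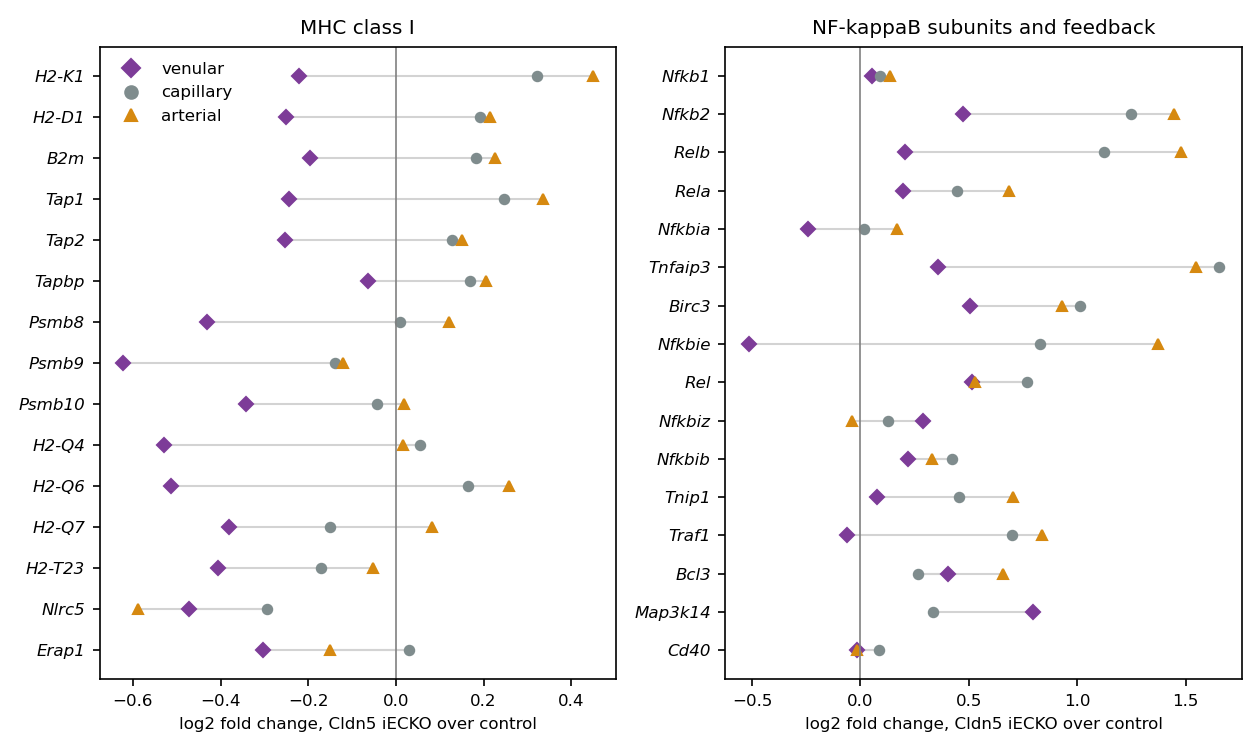
Log2 fold change of Cldn5 iECKO over control (horizontal axes) of MHC class I genes (left) and NF-kappaB genes (right) in venular, capillary and arterial cells, from the edgeR fit of each class without block (Map3k14 was not tested in arterial cells). All 15 venular points of the left panel lie under 0, and Relb, Nfkb2 and Tnfaip3 have venular points left of their capillary and arterial ones.

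Other genes had a more positive genotype difference in venular cells than in capillary cells, in arterial cells or in both. Cp, the copper-carrying acute-phase protein ceruloplasmin, was at 268, 381 and 272 CPM in venular cells of Cldn5 iECKO, against 163, 281 and 195 CPM in those of the controls. In capillary cells it was at 82.1, 87.2 and 68.1 CPM in Cldn5 iECKO, against 88.1, 116 and 85.4 CPM in the controls. The difference was 0.80 ± 0.11 against capillary cells (edgeR adjusted p = 0.000297) and 0.83 ± 0.13 against arterial cells (edgeR adjusted p = 0.00127), each called in 6 of 6 fits with a library left out. Dll4, a Notch ligand of arterial identity, was at 56.2, 58.0 and 28.7 CPM in venular cells of Cldn5 iECKO, against 6.95, 15 and 18.4 CPM in those of the controls, and the difference from arterial cells was 1.11 ± 0.17 (edgeR adjusted p = 0.00111, called in 6 of 6 fits with a library left out and lost when Lrg1 and Ch25h were not used). In capillary cells Dll4 was at 176, 158 and 83.9 CPM in Cldn5 iECKO, against 39.8, 58.8 and 71.6 CPM in the controls. Those groups did not overlap either, and the difference from capillary cells was not called. Its arterial levels were 220, 226 and 120 CPM against 98.7, 110 and 150 CPM. Igfbp3, already named, was at 549, 167 and 31.2 CPM in arterial cells of Cldn5 iECKO, against 107, 86.9 and 61.4 CPM in the controls. It differed from arterial cells by 2.97 ± 0.33 (edgeR adjusted p = 0.00087). That call held in 6 of 6 fits with a library left out and was lost against all other endothelial cells, with Apln and Plvap allowed and without the cells of highest UMI count, with differences from 1.5 to 4.57 over 8 other settings (edgeR adjusted p up to 0.652). The heat-shock genes Hspa1a and Hspa1b, near copies that can share reads, were lower in capillary cells of Cldn5 iECKO than in those of the controls, and their venular levels overlapped between the groups for Hspa1b, with 193, 244 and 216 CPM in Cldn5 iECKO against 365, 359 and 183 CPM in the controls. Cldn5 fell less in venular than in arterial cells, with a difference of 0.46 ± 0.08 (edgeR adjusted p = 0.00435, called in 5 of 6 fits with a library left out, the exception being that without Cldn5 iECKO 2, and lost with at least 4 markers required, when Lrg1 and Ch25h were not used and against all other endothelial cells).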

How the data were processed

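Single cells of brain microvessels were sequenced by droplet 3′ RNA-seq, per the labels. The values deposited by the authors are raw UMI counts, not normalized. Cell Ranger 6.1.1 wrote them, per the file headers, and the build is mm10 and Seurat was used too, per the submitters' processing notes. Every barcode in them holds at least 500 UMIs. The YFP feature had 0 UMIs.

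Cells were gated by marker detection as described above. Capillary cells had at least 3 of Mfsd2a, Slc16a1, Rgcc, Spock2, Car4 and Tfrc and at most 1 venular and 1 arterial marker. Arterial cells had at least 3 arterial and at most 2 venular markers. The members, marker lists, 21 gene lists and tests were chosen with earlier results of these data known. Counts were summed per library and class (n = 3 libraries a group) and tested with edgeR 4.0.16 (quasi-likelihood with robust fitting, TMM scaling, low counts removed by filterByExpr, Benjamini-Hochberg adjusted p under 0.05 over all genes, two-sided), without pairing as planned. Deviations from group means in venular sums correlated for same-numbered libraries across 10363 genes (r = 0.474, 0.393 and 0.297). For libraries of different number r ran from -0.370 to 0.0743. With mean log2 CPM of at least 5 and a few genes left out, the pair of replicate 3 had r = 0.322. Cldn5 iECKO 2 with control 3 then had 0.302, so replicate 3 is the least clearly paired. The numbers were taken to pair the libraries, and the blocked fit is printed where it changes a call. These correlations and the counts of calls were seen together. Differences between classes used 1 model with the library as a block and a class by genotype term. The fits were run on simulated counts drawn independently for each sum, without the shared deviations of same-numbered libraries. That run therefore cannot speak to the pairing in these data. R 4.3.3, DESeq2 1.42.0, Python 3.11.15, numpy 2.4.6, scipy 1.17.1, pandas 2.3.3 and matplotlib 3.10.9 were used.

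Genes were named by rule: Cldn5 and the markers, then, in the genotype comparison, up to 15 each way past the threshold with mean log2 CPM of at least 5 and groups that did not overlap, by size. Members of a list past the threshold, its first 4, and up to 8 differences each way between classes were added. NF-kappaB and MHC class I members called in the class comparison outside this rule (Tnfaip3, Nfkb2, Psmb9, Psmb8, H2-K1, H2-D1, H2-Q4 and B2m) were chosen after their values were seen. Predicted and mitochondrial genes, Xist, Tsix and the Y-linked genes Ddx3y, Eif2s3y, Kdm5d and Uty entered the counts without being named by rule. A contrast of cells without and with Cldn5 UMIs inside the Cldn5 iECKO libraries was planned with at least 10 cells a pool and not run, since Cldn5 iECKO 2 and 3 had 7 such cells without a UMI each. Alternatives were RLE factors, no filter on low counts, DESeq2, other cell filters and gates, equal cell numbers and each library left out. Gene coordinates are from GENCODE vM21.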

Additional observations from a re-analysis of the deposited data

Results flagged for a closer look

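The genotype difference differed between venular and capillary or arterial cells, by a test of the difference itself (edgeR, class by genotype term, adjusted p under 0.05), for the genes that follow. They are the up to 8 each way chosen by rule, with Cldn5, and the MHC class I and NF-kappaB members past the threshold, which were added after their values were seen. Each value is the log2 fold change of Cldn5 iECKO over control in venular cells minus that in the other class.

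Against capillary cells the difference was more negative for Asb4 (-1.55), Tnfaip3 (-1.23), Sox4 (-1.10), Odc1 (-1.08), Tcim (-1.06), Rhoc (-0.93), Nid2 (-0.91), Relb (-0.90), Cx3cl1 (-0.87) and Nfkb2 (-0.76). Rhoc, a GTPase that controls actin, was at 511, 230.4 and 273 CPM in venular cells of Cldn5 iECKO 1 to 3, against 372, 160.3 and 232 CPM in control 1 to 3. In capillary cells it was at 920.0, 352 and 395 CPM in Cldn5 iECKO, against 293, 137 and 207 CPM in control libraries. It kept its call in 6 of 6 fits with a library left out and lost it when Lrg1 and Ch25h were not used. The MHC class I genes H2-Q4 (-0.57), H2-K1 (-0.54), Psmb9 (-0.48) and H2-D1 (-0.44) were also more negative. The difference was more positive for Ifitm1 (1.58), Hspa1b (1.24), Hspa1a (1.09), Cp (0.80), Frmd5 (0.67), Slc7a1 (0.56), Nfat5 (0.49) and Sema3c (0.47). Ifitm1, an interferon-induced membrane protein, was at 226, 145 and 175 CPM in venular cells of Cldn5 iECKO, against 41.7, 37.2 and 83.1 CPM in those of the controls, and at 2.43 CPM or less in capillary cells of both groups. It kept its call in 3 of 6 fits with a library left out.

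Against arterial cells the difference was more negative for Vcam1 (-1.67), Asb4 (-1.31), Relb (-1.29), Cx3cl1 (-1.19), Tnfaip3 (-1.12), Nfkb2 (-1.0), Il2rg (-0.96), Il1r1 (-0.92), Sox4 (-0.91) and Csf1 (-0.90). It was also more negative for the MHC class I genes H2-K1 (-0.69), Psmb8 (-0.54), H2-Q4 (-0.54), H2-D1 (-0.47) and B2m (-0.42). It was more positive for Igfbp3 (2.97), Egr3 (1.68), Dll4 (1.11), Hrct1 (1.0), Fosl2 (0.99), Fat4 (0.90), Cp (0.83), Hspa1b (0.80) and Cldn5 (0.46). Over these 46 differences and 14 other settings each, 451 values kept their call, 193 lost it and 0 changed sign. The differences were chosen by their call in the same libraries, so the unchanged sign follows largely from the choice.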

How the results depend on the processing

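The count of genes that differed by genotype in venular cells was 0 in the unpaired fit and with RLE factors. It was 132 with no filter on low counts, 14 with DESeq2, 7 at no more than 5% mitochondrial UMIs, 5 with equal cell numbers and 2 when Lrg1 and Ch25h were not used, and 0 to 24 with a library left out, the highest without Cldn5 iECKO 3. With the replicate number as a block, which pairs the libraries, it was 144. The paired count was 130 with RLE factors, 403 with no filter, 31 with DESeq2, 148 and 150 with at least 2000 or 5000 UMIs, 108 at 5% mitochondrial UMIs and 118 with equal cell numbers. It was 65 with at least 4 markers, 72 with Apln and Plvap allowed, 36 without the cells of highest UMI count and 66 without Lrg1 and Ch25h. Leaving out the pair of replicate 1, 2 or 3 gave 69, 76 and 249. DESeq2 with the block left most genes without an adjusted p and tested 1856. The limit of 5000 UMIs, the gate without Lrg1 and Ch25h and the paired fits of each setting were chosen after seeing the data.

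Cldn5 was lower in Cldn5 iECKO in 32 of 32 other settings and passed the test with DESeq2 (-0.78) and with the block (-0.78). With the block it was -0.79 with RLE factors, -0.80 with no filter, -0.79 with DESeq2, -0.77 at 2000 UMIs, -0.77 at 5000 UMIs, -0.80 at 5% mitochondrial UMIs, -0.83 with 4 markers, -0.74 with Apln and Plvap allowed, -0.83 without the cells of highest UMI count, -0.89 without Lrg1 and Ch25h and -0.82 with equal cell numbers. Without the pair of replicate 1 or 3 it was -0.84 and -0.88, called, and without that of replicate 2 it was not called. The share of venular cells without a Cldn5 UMI was higher in Cldn5 iECKO in every setting run, by 4.5 percentage points at 4000 UMIs to 20.9 at 1000 UMIs.

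The venular minus capillary count was 160 with no filter, 34 without Lrg1 and Ch25h, and 22 to 144 with a library left out. The venular minus arterial count was 153 with no filter, 38 against all other endothelial cells, 38 without Lrg1 and Ch25h, and 26 to 124 with a library left out. For 55 single genes whose venular value is given, 1732 values under other settings were computed, and 24 of them, from 5 uncalled genes, had the opposite sign, with 0 of the 24 called. Nr2f2 was negative with no filter (-0.0041, and -0.0043 with the block), at 5% mitochondrial UMIs (-0.13, and -0.14 with the block), with Apln and Plvap allowed (-0.022, and -0.019 with the block), and without the cells of highest UMI count with the block (-0.0077). With 1 library left out it ran from -0.028 to 0.088. Icam1 was negative without the cells of highest UMI count (-0.028, and -0.075 with the block), and with 1 library left out it ran from -0.22 to 0.54. With 1 library left out Ocln ran from -0.14 to 0.0008 and Tjp1 from -0.19 to 0.12. In the paired fits without a pair of libraries the values of opposite sign were -0.039 and -0.044 for Nr2f2 without replicate 1 and 2, -0.059 and -0.0018 for Icam1 without replicate 1 and 3, and -0.049 for Vcam1 and 0.065 for Tjp1 without replicate 1. The cause of these changes was not tested. Each sum holds 98 to 248 cells of a library, which limits what can be seen in genes of few UMIs. The contrast of cells without and with Cldn5 UMIs was not run, and neither were its other settings.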

Other observations

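Of 30 actin and cytoskeleton genes, 26 had a more negative genotype difference in venular than in capillary cells, and Rhoc, Capg, Tmsb10 and Tmsb4x were called (edgeR, class by genotype term), against 51.3% of all genes negative and 0.384% called in that direction. The list's median log2 fold change was 0.08 in venular and 0.36 in capillary cells. Of 22 barrier transporters 4 were more negative, and Slc7a1, the arginine transporter, and Slco1a4, an organic anion carrier, were called as more positive, against 0.0981% of all genes. Slc7a1 was at 252, 216 and 309 CPM in venular cells of Cldn5 iECKO 1 to 3, against 212, 255 and 312 CPM in control 1 to 3. In capillary cells it was at 456, 402 and 512 CPM in Cldn5 iECKO, against 675, 590 and 782 CPM in control libraries. Of 18 haemostasis genes 16 were more negative in venular than in capillary cells, against 51.3% of all genes. Among them F2r, the thrombin receptor, was called (-2.14 on the log2 scale), where 0.384% of all genes were called in that direction. F2r fell under the mean log2 CPM of 5 that the class differences named by size had to reach. Its difference thus rests on low counts, and its fits with a library left out are not given here.

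The remaining lists gave few calls in the paired edgeR fit of venular cells, in which 1.39% of all genes were called. These members are named because they passed the threshold. Of 17 glycolysis and hypoxia genes 13 were positive, with Pfkfb3 and Pgk1 called higher. Of 24 immediate-early and stress genes 17 were negative, with Gadd45g and Atf3 called lower and Egr1 higher. Of 22 Wnt genes 13 were negative, with Sox17 called lower, and of 15 flow-responsive genes 9 were negative, with Klf2 called lower. Among 17 TGF-beta and BMP genes, Tgfb1 and Smad1 were called higher and Ltbp4 lower. Among 24 barrier transporters Insr was called higher, and among 16 haemostasis genes Plaur, the urokinase receptor. Of 14 cell cycle genes 7 were positive, with Myc called higher. Ccnd1, the cyclin D1 gene of that list, was at 123, 130 and 83.7 CPM in Cldn5 iECKO, against 22.6, 22.1 and 44.0 CPM in control libraries. Its groups did not overlap, but it was not called (1.89 ± 0.28, edgeR adjusted p = 0.0819, 0.342 with the block). Several of these calls (Pfkfb3, Atf3, Egr1, Sox17, Tgfb1, Insr and Plaur) had overlapping groups. No member was called among 13 caveolae and transcytosis, 9 chemokine and cytokine, 16 acute phase and prostaglandin, 16 NF-kappaB and 12 lipid signalling and prion family genes.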
